A study of Thermothelomyces thermophilus ATCC 42464 with 8 samples.

Results

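The regions described here were the small H3K9me3 peaks that lay beside broad H3K9me3 domains in the thermophilic fungus Myceliophthora thermophila. They were taken from the peak list of WT replicate 2 as peaks shorter than 10000 bp whose gap to the nearest peak of at least 10000 bp was under 10000 bp. The gap is the number of bases between the edges of both peaks. Peaks within 100000 bp of a chromosome end were left out, where the end is the last position that any list gives on that chromosome. This rule gave 929 flanking peaks of the 3329 peaks in the list. The remaining peaks were 1871 other small peaks away from the chromosome ends, 289 broad peaks away from the ends and 240 peaks near the ends.

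H3K9me3, the trimethylation of lysine 9 of histone H3, is a mark of heterochromatin, the densely packed and little transcribed part of the genome. In filamentous fungi such as Neurospora crassa it is laid down by a histone methyltransferase and bound by heterochromatin protein 1, and it covers long stretches of repeats, including centromeres and the remains of mobile elements. A peak caller lists neighbouring enriched stretches as 1 peak where they lie close enough and as separate peaks otherwise. LaeA is a putative methyltransferase known in Aspergillus as a regulator of secondary metabolism.

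Chromatin came from mycelium of ΔlaeA, in which laeA was deleted, and of WT (strain ATCC 42464), both grown in Vogel's salts with 2% glucose at 45 °C for 24 h. An antibody against H3K9me3 was used for 2 ChIP libraries of each strain, and the 2 input libraries of each strain were not analysed here. The sample labels name the antibody ab8902 for ΔlaeA and ab8898 for WT, whereas the study's methods name ab8898, and the series' design text names H3K79me3 where its title and labels name H3K9, so strain and antibody label cannot be told apart here. Nothing in the labels says whether replicates were separate cultures.

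The lists of the replicate numbers were called differently, and this bears on each overlap below. The replicate 2 lists hold peaks with a q under 0.05. The WT replicate 2 list had a median peak length of 1536 bp and 310 peaks of at least 10000 bp, and the ΔlaeA replicate 2 list was held only up to position 3058073 of chromosome 1, which is 7.89% of the genome. The replicate 1 lists cover all 7 chromosomes but hold short and weak peaks, 3054 in ΔlaeA (median 261 bp) and 5846 in WT (median 301 bp), of which 4 in ΔlaeA and 0 in WT had a q under 0.05. No replicate 1 peak reached 10000 bp, so the domains themselves were defined in the replicate 2 lists alone. Read totals were not used here, so depth is unknown. The exact binomial (Clopper-Pearson) 95% intervals given for shares cover the counting of regions only, and regions beside 1 domain share their surroundings.

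The flanking peaks were intermediate in size and enrichment between the other small peaks and the broad peaks. Their length ran from 227 to 9968 bp with a median of 1796 bp and quartiles of 834 and 3951 bp. The median was 1194 bp for the other small peaks and 16395 bp for the broad peaks. Their fold enrichment, the ratio of the summit pileup to the local background with 1 added to each, ran from 1.19 to 4.59 with a median of 2.16. The median was 1.91 in the other small peaks and 3.28 in the broad peaks. For 503 of the 929 flanking peaks the local background stood at its lowest value, 97.87. Among these the fold enrichments differ through the pileup only. The median −log10 q of the flanking peaks was 23.7, and 877 of the 929 had a value of at least 5. All of these values come from the list that chose the peaks and are therefore a description without a test.

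**Figure D1:**
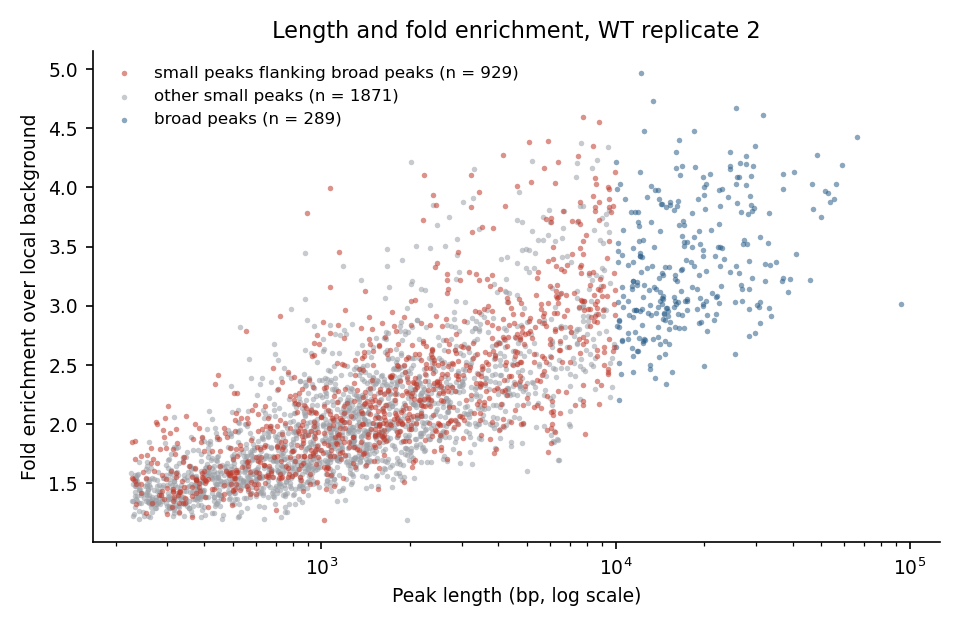
Fold enrichment against length in bp (log axis) for the flanking peaks, the other small peaks and the broad peaks of WT replicate 2, 1 point per peak. The flanking peaks, with medians of 1796 bp and 2.16, spread over the same range of lengths as the other small peaks, and fold enrichment is higher in longer peaks.

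Longer flanking peaks were more enriched. Spearman's rho between length and fold enrichment was 0.77 over the 929 peaks, which share 1 library. A fold enrichment is read at the summit, and a longer peak has more positions from which its highest value is taken. Whether this bears on the correlation was not tested. Of the 929, 843 (90.7%) had a lower fold enrichment than the broad peak they flanked, with a median ratio of 0.66 between the fold of the flanking peak and that of its domain. The rule sets shorter peaks against longer ones here. The other small peaks had a still lower median fold enrichment, 1.91, so this order is not particular to flanking peaks. The 3 most enriched flanking peaks were all long. They were chr3:4254158-4261899 (7742 bp, fold enrichment 4.59), chr5:938787-947576 (8790 bp, 4.56) and chr5:3853814-3859716 (5903 bp, 4.39). Coordinates are those of the deposited lists, which name no genome build.

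At the low end of enrichment stood chr7:607038-608057, a 1020 bp peak singled out after its values were seen. Its summit pileup was 9302 on a local background of 7814, so its fold enrichment was 1.19 although its −log10 q was 57.6. The lists of ΔlaeA replicate 1 and WT replicate 1 held no peak there. The median pileup of the flanking peaks was 226.

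The limits of the rule cut through continuous distributions. The 3 flanking peaks just inside the length limit had lengths of 9968, 9961 and 9955 bp and fold enrichments of 4.13, 3.14 and 2.92, and the 3 peaks just outside it had lengths of 10020, 10047 and 10137 bp and fold enrichments of 4.22, 2.65 and 2.83. At the gap limit, the 3 peaks just inside had gaps of 9989, 9971 and 9950 bp and fold enrichments of 2.73, 1.67 and 2.12. The 3 just outside had gaps of 10025, 10041 and 10050 bp and fold enrichments of 1.69, 1.91 and 3.45.

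The 929 peaks were spread over 265 broad peaks, of which 262 lay away from chromosome ends and 3 near them. A further 27 broad peaks away from the ends were the nearest broad peak of no flanking peak. A broad peak with flanking peaks had a median of 3 and at most 9, and 39 had a single one. Flanking peaks lay before the domain in 439 cases and after it in 490, counted in the direction of the coordinates. For 130 of them (14.0%) a broad peak lay within 10000 bp on either side, so these sat between neighbouring domains.

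All 7 chromosomes held flanking peaks, in numbers of 206, 73, 90, 139, 153, 172 and 96 on chromosomes 1 to 7. Set against the broad peaks away from the ends, there were between 2.73 flanking peaks per broad peak on chromosome 3 and 3.56 on chromosome 7. Per Mb the spread was wider, from 13.4 on chromosome 2 to 41.7 on chromosome 6. Their number therefore followed that of the broad peaks more closely than chromosome length, as a rule that needs a broad peak nearby entails.

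The domains with the most flanking peaks show what these clusters look like. The broad peak chr1:5186630-5205139 (18510 bp, fold enrichment 4.48) had 4 flanking peaks before and 5 after it. They were 280 to 1945 bp long with fold enrichments of 1.40 to 2.59, and the gap of the nearest one was 791 bp. The broad peak chr2:2884436-2895517 (11082 bp, 2.92) had 2 before and 7 after it. The nearest of these, chr2:2874926-2884050, was itself 9125 bp long and lay 385 bp away, just under the length at which it would have counted as a domain. On the other side a chain of 7 peaks of 308 to 3951 bp reached out to a gap of 8814 bp. The broad peak chr1:2989095-3016766 (27672 bp, 4.02) had 4 on either side, the nearest at 313 and 251 bp.

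Many flanking peaks nearly touched their domain. Of the 929, 417 (44.9%) had no other peak between themselves and the broad peak, and the others followed behind 1 to 6 small peaks. The median gap over all 929 was 2790 bp, with quartiles of 436 and 6164 bp. Among the 417 direct neighbours the median gap was 397 bp, and 248 of them (59.5%) lay under 500 bp away. Under 300 bp lay 124 of the 417 (29.7%), against 507 of the 3322 pairs of neighbouring peaks in the whole WT replicate 2 list. Short spacing was thus also found away from domain edges. The smallest gap was 227 bp, found for 5 flanking peaks, and 29 had gaps of 227 to 236 bp. The smallest distance between any neighbouring peaks was likewise 227 bp in the part held of the ΔlaeA replicate 2 list and in the WT replicate 2 list. In the replicate 1 lists it was 147 bp in ΔlaeA and 150 bp in WT. The shortest gaps thus stood at the smallest separation of any peaks in the list.

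**Figure D2:**
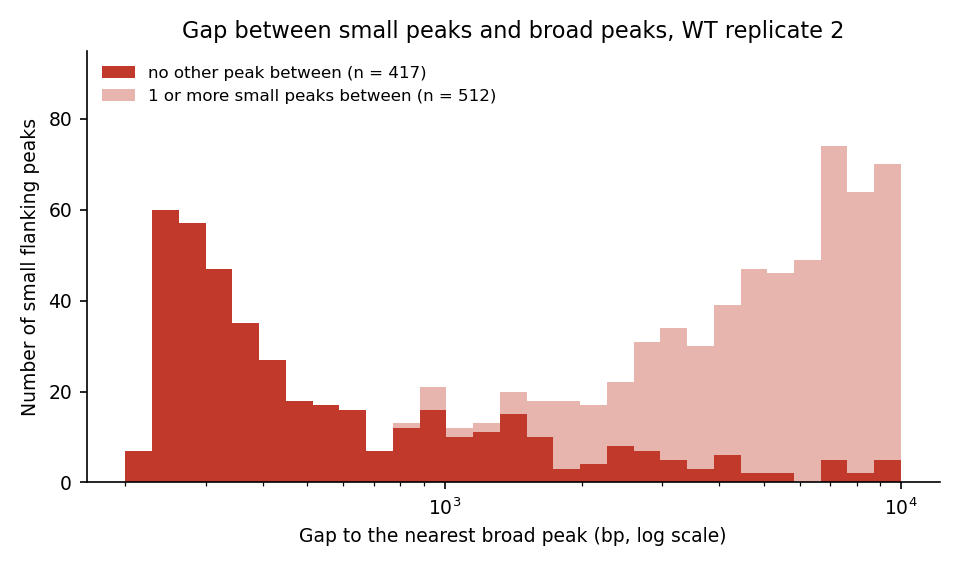
Number of flanking peaks of WT replicate 2 by gap in bp to the nearest broad peak (log axis), split into those directly next to the domain and those with other peaks between. Direct neighbours, with a median gap of 397 bp, pile up between 227 and 500 bp, whereas peaks further along the chain spread up to 9989 bp.

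The closest flanking peaks were also the longest and most enriched. The 124 with gaps under 300 bp had a median length of 3830.5 bp and a median fold enrichment of 2.62, and the 124 with gaps of 300 to 499 bp had 2894 bp and 2.62. At gaps of 500 to 999 bp the medians were 1741 bp and 2.21 over 75 peaks. From 1000 bp outwards they stayed between 1474 and 1539 bp and between 2.01 and 2.08, in 4 classes of 111 to 186 peaks. The step thus fell near 500 bp, and beyond 1000 bp neither length nor enrichment changed much with distance. Spearman's rho between gap and fold enrichment was −0.29 over the 929 peaks.

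Single examples show how unlike each other the closest ones were. Of the first 3 at a gap of 227 bp, chr1:316175-316888 was a 714 bp peak with a fold enrichment of 2.30, whereas chr1:5252390-5261262 was 8873 bp long with 3.23 and chr1:10807977-10810669 was 2693 bp long with 3.15. The third overlapped replicate 1 peaks by 457 bp in ΔlaeA and 499 bp in WT, and the others overlapped none in either strain.

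The replicate 1 lists, which the rule did not use, were searched for peaks sharing at least 1 bp with a flanking peak. In ΔlaeA replicate 1, 383 of the 929 had one (41.2%, interval 38.0 to 44.5%), and in WT replicate 1, 583 had one (62.8%, 59.6 to 65.9%). Over all 3329 peaks of WT replicate 2 the background was 39.1% for ΔlaeA replicate 1 and 60.4% for WT replicate 1. The shares of the flanking peaks were thus close to the background. Among the other small peaks they were 29.8% in ΔlaeA replicate 1 and 52.7% in WT replicate 1, and among the broad peaks 81.7% in ΔlaeA replicate 1 and 91.0% in WT replicate 1.

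Split by strain, 325 flanking peaks (35.0%, background 33.7%) had a peak in both replicate 1 lists. A further 58 (6.24%, background 5.41%) had one in ΔlaeA replicate 1 alone and 258 (27.8%, background 26.7%) in WT replicate 1 alone, while 288 (31.0%) had none. At least 1 of the replicate 1 lists held a peak at 641 of them (69.0%, background 65.8%). Where both lists had a peak, their peaks mostly overlapped each other. At 268 of the 325 (82.5%) a base was shared between the peaks of ΔlaeA and WT, against 387 of 459 (84.3%) among the other small peaks.

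The replicate 1 peaks at these sites were small and weak. In ΔlaeA replicate 1, 589 peaks overlapped a flanking peak. Their median length was 271 bp, their median fold enrichment 1.43 and their highest −log10 q 1.07. In WT replicate 1, 1087 peaks did so, with a median length of 325 bp, a median fold enrichment of 1.41 and a highest −log10 q of 0.874. None in either list had a q under 0.05. Of these peaks, 72.2% in ΔlaeA replicate 1 and 69.2% in WT replicate 1 lay wholly inside a flanking peak. They covered 6.73% of the bases of the flanking peaks in ΔlaeA replicate 1 and 16.5% in WT replicate 1.

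The lower share in ΔlaeA replicate 1 stood beside a shorter list. The difference between the strains was −21.5 percentage points (ΔlaeA minus WT). For equal numbers, the WT replicate 1 list was cut to its 3054 top peaks by −log10 p, while the ΔlaeA replicate 1 list was used whole. Then 41.2% of the flanking peaks had a peak in ΔlaeA replicate 1 and 44.7% in WT replicate 1, a difference of −3.44 points. The background was 39.1% in ΔlaeA replicate 1 and 45.2% in WT replicate 1. With 1 usable library per strain no test between the strains was possible, since WT replicate 2 holds a peak at each site by the rule. Even 2 libraries against 2 could not give a two-sided p under 0.333 in an exact permutation test.

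Overlap with replicate 1 depended on the length of the flanking peak. In ΔlaeA replicate 1 the share with a peak was 24.4% for flanking peaks under 500 bp (n = 119), 26.0% at 500 to 999 bp (n = 169), 42.5% at 1000 to 1999 bp (n = 212), 50.4% at 2000 to 4999 bp (n = 254) and 52.6% at 5000 bp and more (n = 175). In WT replicate 1 it was 51.3%, 45.6%, 59.9%, 71.3% and 78.3% over the same classes. The other small peaks had 11.9%, 19.2%, 33.5%, 45.1% and 49.0% in ΔlaeA replicate 1 and 26.5%, 41.1%, 62.2%, 72.3% and 62.7% in WT replicate 1. The excess of flanking over other small peaks was thus largest in the shortest class in both lists. There the intervals did not overlap in either list, with 17.0 to 33.1% against 8.73 to 15.7% in ΔlaeA replicate 1 and 41.9 to 60.5% against 22.0 to 31.4% in WT replicate 1. In the class of 5000 bp and more the same held in WT replicate 1, with 71.4 to 84.2% against 54.6 to 70.4%. In the other classes the intervals of flanking and other small peaks overlapped in both lists. These intervals count regions against 1 library per list, and no test was made.

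**Figure D3:**
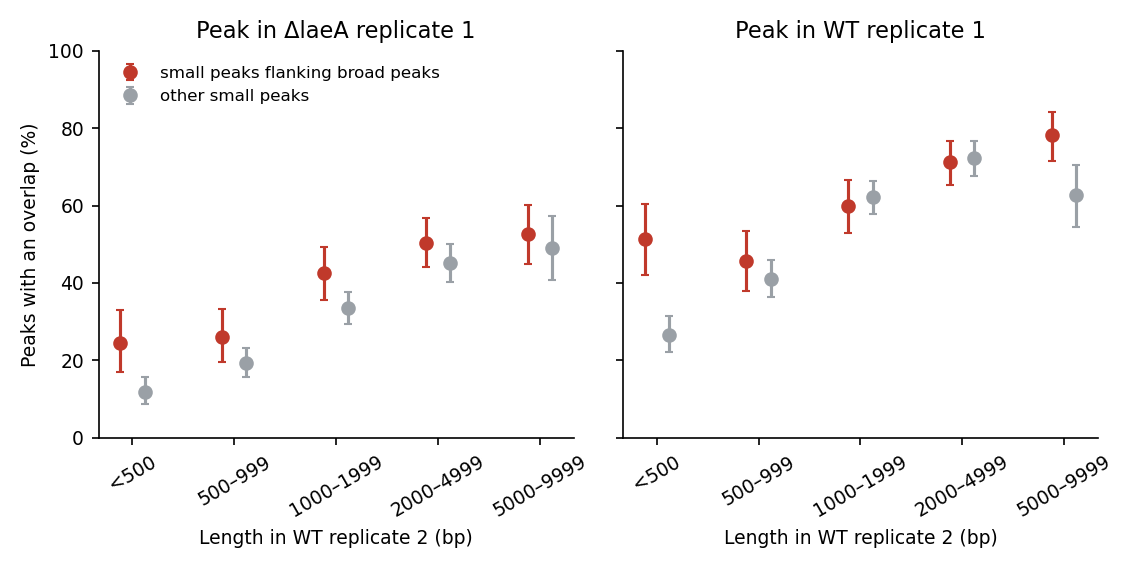
Percent of flanking peaks and of other small peaks with a replicate 1 peak, by length class in bp, for ΔlaeA replicate 1 and WT replicate 1, with exact binomial 95% intervals as bars. Shares are higher in longer peaks, and the flanking peaks stand furthest above the other small peaks under 500 bp, at 24.4% against 11.9% in ΔlaeA replicate 1 and 51.3% against 26.5% in WT replicate 1.

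Near the domain a smaller part of the bases of flanking peaks was covered by replicate 1 peaks than further out. At gaps under 500 bp, 43.5% (108 of 248) had a peak in ΔlaeA replicate 1 and 56.0% (139) in WT replicate 1. At gaps of 500 bp or more it was 40.4% (275 of 681) in ΔlaeA replicate 1 and 65.2% (444) in WT replicate 1. Counted in bases, the cover was 5.26% in ΔlaeA replicate 1 and 11.1% in WT replicate 1 under 500 bp, and 7.62% in ΔlaeA replicate 1 and 19.9% in WT replicate 1 from 500 bp. Since the near peaks were longer, the shares of peaks with an overlap were also set side by side within classes of length. The cover by bases was not. In WT replicate 1, near and wider-gap flanking peaks had a peak in 29.5% and 51.2% of cases under 1000 bp, in 21.1% (8 of 38) and 68.4% (119 of 174) at 1000 to 1999 bp, in 60.2% and 76.6% at 2000 to 4999 bp and in 68 of 83 and 69 of 92 cases from 5000 bp. In ΔlaeA replicate 1 the shares were 29.5% and 24.6%, 31.6% and 44.8%, 50.6% and 50.3%, and 49.4% and 55.4% over the same classes. A lower share near the domain thus stood out in WT replicate 1 below 2000 bp and not from 5000 bp. The intervals of both gap classes did not overlap at 1000 to 1999 bp (9.55 to 37.3% and 60.9 to 75.2%). They count regions against 1 library, split at a gap chosen after values were seen, and no test was made. The broad peaks themselves had a cover by bases of 3.81% in ΔlaeA replicate 1 and 9.28% in WT replicate 1, and the other small peaks had 6.27% in ΔlaeA replicate 1 and 19.3% in WT replicate 1.

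With equal numbers of top peaks, the order of the strains was not the same in both gap classes. Under 500 bp, 108 flanking peaks (43.5%) had a peak in ΔlaeA replicate 1 and 86 (34.7%) in WT replicate 1. From 500 bp, 275 (40.4%) had one in ΔlaeA replicate 1 and 329 (48.3%) in WT replicate 1. The broad peaks had the order of the near class, with 81.7% in ΔlaeA replicate 1 and 75.4% in WT replicate 1. These gap classes were chosen after the gap sizes had been seen, and whether the strains differ between them was not tested.

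The gap itself, between a domain and its direct neighbour, was mostly empty in the replicate 1 lists where it was short. Of the 124 gaps under 300 bp, 6 (4.84%) held a peak of ΔlaeA replicate 1 and 14 (11.3%) one of WT replicate 1. Of the 194 gaps of 300 to 999 bp, 44 (22.7%) did so in ΔlaeA replicate 1 and 57 (29.4%) in WT replicate 1, and of the 99 wider gaps 46 (46.5%) in ΔlaeA replicate 1 and 58 (58.6%) in WT replicate 1. By bases the shortest gaps had the lowest cover, 1.95% in ΔlaeA replicate 1 and 6.10% in WT replicate 1, the gaps of 300 to 999 bp had 9.58% in ΔlaeA replicate 1 and 14.7% in WT replicate 1, and the gaps of at least 1000 bp had 7.08% in ΔlaeA replicate 1 and 15.8% in WT replicate 1.

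**Figure D4:**
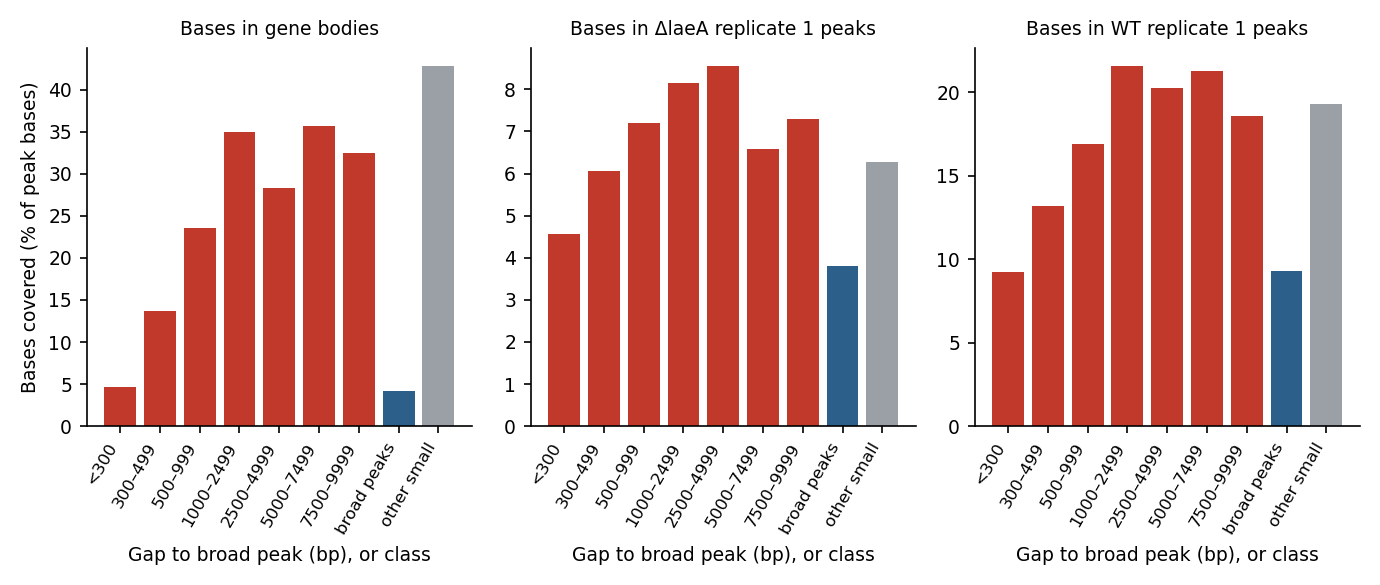
Percent of the bases of flanking peaks covered by peaks of ΔlaeA replicate 1, by peaks of WT replicate 1 and by gene bodies, by gap class in bp, beside the broad peaks and the other small peaks. Under a gap of 300 bp, WT replicate 1 peaks cover 9.23% and gene bodies 4.62% of the bases, and at gaps of 1000 to 2499 bp they cover 21.6% and 35.0%.

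The flanking peaks with most bases in both replicate 1 lists stood away from the domain edge. At chr6:1457554-1461770 (4217 bp, gap 1048 bp), 3055 bp were covered in ΔlaeA replicate 1 and 3747 bp in WT replicate 1, with 2621 bp in common. At chr5:4043255-4048166 (4912 bp, gap 4776 bp) it was 2455 bp in ΔlaeA replicate 1 and 3898 bp in WT replicate 1, and at chr5:3853814-3859716 (gap 8482 bp) 2492 bp in ΔlaeA replicate 1 and 5445 bp in WT replicate 1. In contrast, the 3 longest flanking peaks had no peak in ΔlaeA replicate 1 and 449, 657 and 656 bp in WT replicate 1.

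The ΔlaeA replicate 2 list, called like that of WT replicate 2, covers 56 of the flanking peaks, on the first part of chromosome 1. Of these, 49 (87.5%) had a peak in ΔlaeA replicate 2, against a background of 84.0% over the 200 peaks of WT replicate 2 there, 93 of 116 (80.2%) among the other small peaks and 21 of 21 among the broad peaks. Peaks of ΔlaeA replicate 2 covered 94.3% of the bases of the 56. The share with a peak in this ΔlaeA library was thus close to that of the list as a whole. The replicate 1 lists held a peak at 22 of the same 56 (39.3%) in ΔlaeA and at 30 (53.6%) in WT. Of the 14 with a replicate 1 peak in WT alone, 12 had a peak in ΔlaeA replicate 2.

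What differed was where peaks began and ended. Of the 56, 16 (28.6%) lay in a ΔlaeA replicate 2 peak of at least 10000 bp, against 21.5% of all 200 peaks and 12.4% of the 178 small peaks on this part, and 6 of the 116 other small peaks. In 11 of the 56 the ΔlaeA peak also spanned a broad WT peak, which was the domain they flanked in 9 cases. In 14 it spanned another small WT peak instead, in 24 the site was separate from all other WT peaks, and at 7 there was none. Of the 14 with gaps under 500 bp, 7 were joined with a broad WT peak, 2 with a small one and 5 were separate. Of the 42 with wider gaps the numbers were 4, 12 and 19, and the 7 sites without a peak were all among these. Of the 24 separate sites, 1 held 2 peaks in ΔlaeA replicate 2. The other 23 had a median length of 1480 bp in ΔlaeA replicate 2 and 1562 bp in WT replicate 2 and were shorter in ΔlaeA replicate 2 in 19 cases. Their median fold enrichment was 2.01 in either list.

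These counts lean towards joining in ΔlaeA, because the sites were chosen for being separate from a domain in WT replicate 2. The same rule was therefore applied to the ΔlaeA replicate 2 list. It found 49 flanking peaks, of which 48 (98.0%) had a peak in WT replicate 2 and 7 (14.3%) lay in a broad WT peak. The background over all 164 ΔlaeA replicate 2 peaks held was 98.2% with a peak in WT replicate 2 and 15.9% in a broad one, and of the 140 small ones 7 lay in a broad one, so these were all among the 49. The median gap was 2244 bp for these 49 and 3962 bp for the 56 of WT replicate 2, and the median length was 1523 bp in ΔlaeA replicate 2 and 2015.5 bp in WT replicate 2. The part held 23 broad peaks away from the chromosome end in ΔlaeA replicate 2 and 21 in WT replicate 2. Small peaks of either list thus lay in broad peaks of the other, with 1 library per strain and without a test.

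The first stretch of clustered domains on chromosome 1, chr1:262194-424539 (162346 bp), is given site by site because it supplied much of this count. All of its 8 flanking peaks lay in broad ΔlaeA replicate 2 peaks, and 6 were joined with a broad WT peak. Outside it, 8 of 48 flanking peaks (16.7%) lay in a broad ΔlaeA replicate 2 peak and 5 of 48 were joined with a broad WT peak. In ΔlaeA replicate 2 it held 9 peaks, 4 of them of at least 10000 bp, and in WT replicate 2 it held 14, namely 5 broad peaks, 8 flanking peaks and 1 other small peak. A single ΔlaeA peak of 57951 bp spanned 2 broad WT peaks of 10267 and 33234 bp with the flanking peaks chr1:309627-315940 and chr1:316175-316888 on one side and chr1:361112-367445 on the other. The next ΔlaeA peak, of 25989 bp, covered most of a broad WT peak of 14842 bp together with 3 flanking peaks of 3812, 509 and 6999 bp. The last pair of flanking peaks, of 5197 and 6518 bp, shared a ΔlaeA peak of 12427 bp, and the broad WT peak of 10357 bp that they flanked was listed as peaks of 6443 and 3322 bp in ΔlaeA replicate 2. In replicate 1 the same stretch held 4 peaks in ΔlaeA and 20 in WT.

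**Figure D5:**
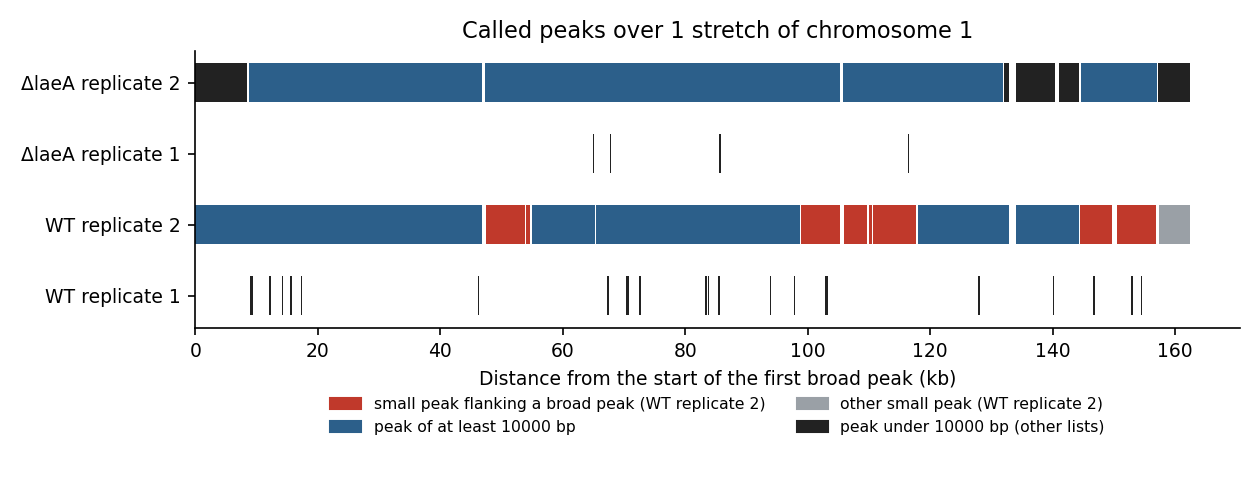
Peaks of ΔlaeA replicate 2, ΔlaeA replicate 1, WT replicate 2 and WT replicate 1 along a stretch of 162346 bp on chromosome 1, with distance in kb from the start of its first broad peak and the 8 flanking peaks coloured. The flanking peaks of WT replicate 2 lie under longer ΔlaeA replicate 2 peaks of 57951, 25989 and 12427 bp, while the replicate 1 lists hold only short peaks, 4 in ΔlaeA and 20 in WT.

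Around the broad peak with 8 flanking peaks on this part of the chromosome (chr1:2989095-3016766), the borders were more alike. Here 4 of the 8 were separate peaks in ΔlaeA replicate 2 with lengths close to those in WT replicate 2, such as 4565 bp in ΔlaeA and 4563 bp in WT for chr1:3017018-3021580. The other 4 were joined in pairs, chr1:2982872-2986558 with chr1:2986805-2988781 into a peak of 5988 bp and chr1:3023050-3023567 with chr1:3023839-3029550 into one of 6312 bp. None of the 8 was joined with the domain, although gaps of 313 and 251 bp separated the nearest ones from it.

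The 7 sites with no ΔlaeA replicate 2 peak were short and weak in WT replicate 2, with lengths of 232 to 1324 bp and fold enrichments of 1.50 to 2.00. Of these, 4 formed a chain between positions 2911894 and 2917569 of chromosome 1, with lengths of 245, 276, 232 and 320 bp. The first 3 of that chain carried a peak in both ΔlaeA replicate 1 and WT replicate 1, so the lists of the ΔlaeA replicates did not match there. The fourth carried one in WT replicate 1 alone.

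Genes were next set against the flanking peaks, with the 9097 protein-coding genes of RefSeq (assembly ASM22609v1). The lists name no build, so their fit to the table was checked by shifting the peaks of WT replicate 2 by up to 1000 bp either way. The share of peak bases in genes was 21.1% at their listed positions and 16.8% to 21.0% at any shift. Of the 929 flanking peaks, 433 (46.6%, 43.4 to 49.9%) shared at least 1 bp with a gene body, against a background of 61.2% over all 3329 peaks. Among the other small peaks 68.6% did, and among the broad peaks 38.1%. By bases, gene bodies made up 22.7% of the flanking peaks, 42.8% of the other small peaks, 4.19% of the broad peaks and 46.5% of the chromosomes as a whole. The flanking peaks thus lay between the gene-poor domains and the other small peaks.

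Gene content changed with the gap. Under 500 bp, 54 of 248 flanking peaks (21.8%, 16.8 to 27.4%) overlapped a gene and 8.84% of their bases lay in genes. From 500 bp it was 379 of 681 (55.7%, 51.8 to 59.4%) and 31.2%. The closest class, under 300 bp, was the poorest, with 14.5% of peaks and 4.62% of bases. The class of 300 to 499 bp had 29.0% of peaks and 13.7% of bases, and from 500 bp outwards the share of peaks stayed between 51.1% and 59.5%. Of the gaps, 6 of 124 under 300 bp (4.84%) touched a gene, against 44 of 194 (22.7%) at 300 to 999 bp and 75 of 99 (75.8%) from 1000 bp. Wider gaps have more bases with which to touch a gene. By bases the gap sequence showed the same order, with 4.16%, 12.6% and 38.3% in gene bodies over these classes. Near peaks were longer, and long peaks held fewer genes, since from 5000 bp the share with a gene was 32.0% in flanking and 31.4% in other small peaks. Within classes of length, near and wider-gap flanking peaks overlapped a gene in 20.5% and 52.0% of cases under 1000 bp, 13.2% and 64.9% at 1000 to 1999 bp, 25.3% and 59.6% at 2000 to 4999 bp and 22.9% and 40.2% from 5000 bp. Intervals of both gap classes overlapped in the last of these and in no other. Below 300 bp both the flanking peak and the gap were thus nearly as poor in genes as the domains.

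The flanking peaks shared bases with 487 genes, 112 of which lay wholly inside a flanking peak, and with 0 of 192 tRNA genes. Short descriptions of function were at hand for part of the genes only. Of the 487 genes, 95 were in that part, which has 1266 genes, and 59 of them carried a description, so the counts by function are incomplete. Words for transport were found for 6 genes at flanking peaks (55 in the whole part), glycoside hydrolases and related enzyme words for 3 (33), zinc-finger and transcription factor words for 3 (38, with all 3 at flanking peaks described as zinc fingers), words for mobile elements for 2 (12), for cytochrome P450 for 1 (14) and for histones for 1 (8). Words for incompatibility genes were found for 0 (2), and words for polyketide or nonribosomal peptide synthesis were found for none in the whole part. Wordings outside these lists, read afterwards, were those of a fungal transcriptional regulatory protein for 5 genes and of a glycosyltransferase family, a carbohydrate-binding module and a beta-galactosidase for 1 gene each.

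The mobile-element genes lay in long flanking peaks. MYCTH_2066922 was described as an RNA-directed DNA polymerase (reverse transcriptase), the enzyme by which retrotransposons copy themselves. Its annotated gene body of only 168 bp lay wholly within the longest flanking peak, chr5:1137218-1147185 (9968 bp, fold enrichment 4.13, gap 2750 bp). This site had 0 bp covered in ΔlaeA replicate 1 and 449 bp in WT replicate 1. MYCTH_2043746, described as an integrase, which inserts element DNA into the genome, lay wholly within chr2:927575-933617 (6043 bp, 1.84, gap 7599 bp), which no replicate 1 peak touched in either strain.

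Enzymes of sugar polymers were found in flanking peaks too. MYCTH_2065851, of glycoside hydrolase family 16, lay wholly within chr5:4043255-4048166, one of the sites best covered in replicate 1, with 2455 bp in ΔlaeA and 3898 bp in WT. MYCTH_100068, of glycoside hydrolase family 11, a family of xylanases, lay within chr2:5265187-5266367 (1181 bp, fold enrichment 2.51, gap 4374 bp), with no replicate 1 peak in either strain. MYCTH_101972, of family 95, had 92.7% of its length in chr3:1241796-1244891 (3096 bp, 2.20, gap 351 bp), with 218 bp covered in ΔlaeA replicate 1 and 607 bp in WT replicate 1. Whether these genes were transcribed was not analysed here.

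Genes with descriptions found in secondary metabolism were chosen here after the list had been read. Of these descriptions only cytochrome P450 was counted over the whole part, with 1 of 14 genes at flanking peaks beside 95 of all 1266. The cover of these sites stands beside that over all flanking peaks, which was also lower in ΔlaeA replicate 1 than in WT replicate 1. MYCTH_104726, a terpenoid synthase, which builds terpene skeletons, lay wholly within chr1:10540362-10545660 (5299 bp, fold enrichment 2.53, gap 9337 bp), where 1464 bp were covered in ΔlaeA replicate 1 and 3095 bp in WT replicate 1. The terpenoid synthase MYCTH_2060085 had 97.1% of its length in chr3:4363708-4364771 (1064 bp, 1.97, gap 9284 bp), with 0 bp in ΔlaeA replicate 1 and 158 bp in WT replicate 1. MYCTH_103096, described by a phosphopantetheine attachment site, the arm on which carrier proteins hold a growing chain, had 56.1% of its length in chr5:4104470-4109882 and 19.2% in chr5:4110254-4112077. The first of these had 0 bp covered in ΔlaeA replicate 1 and 868 bp in WT replicate 1, and the second 220 bp in ΔlaeA replicate 1 and 0 bp in WT replicate 1. The cytochrome P450 gene MYCTH_2070700, from a family of oxidising enzymes, had 90.0% of its length in chr7:1427692-1428975, at a gap of 9971 bp and without a replicate 1 peak in either strain.

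The genes on which the study centres lay away from these sites. No flanking peak came within 1000 bp of laeA, of the carbon catabolite repressor gene cre-1, of the growth regulator genes grf-1, grf-2 and grf-3, of pck (phosphoenolpyruvate carboxykinase, an enzyme of gluconeogenesis) or of fbp. The nearest flanking peak lay 38551 bp from cre-1, 66582 bp from grf-1, 71489 bp from grf-2, 75185 bp from grf-3, 84691 bp from fbp, 105354 bp from pck and 167001 bp from laeA. Of all 9097 protein-coding genes, 487 shared a base with a flanking peak, so the lack of one at these few genes is not particular to them. Distances for other genes are not given here.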

How the data were processed

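Read pairs were trimmed and mapped by the authors with Bowtie2, reads that mapped to 1 place were retained, and MACS2 was run on every ChIP library by itself. The submitters' processing notes name Trimmomatic 0.36, Bowtie2 2.3.4.3 and MACS2 2.1.2. The study's methods name Trim Galore for trimming and other versions of Bowtie2 and MACS2. The deposited pileup is a signal, the fragment coverage at the summit. It is a whole number in 100% of the replicate 2 entries and in 0% of the replicate 1 entries, so pileups and folds were not compared between replicate numbers. The deposited fold enrichment is a ratio to the local background with a pseudocount of 1. Significance was deposited as −log10 of the p and q values that MACS2 gives.

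Entries of the replicate 1 lists that share a peak were joined (4132 entries into 3054 peaks in ΔlaeA, 10000 into 5846 in WT). Peaks were classified by length, gap and distance to the chromosome end, and overlaps of at least 1 bp were counted. Members and lists were chosen with earlier results of these data known. Sites given with single values were the 3 of highest fold enrichment, the 3 longest, the 3 of smallest gap, the 3 on either side of each limit, the 3 best covered in replicate 1 and the 3 domains with most flanking peaks, and others are marked as chosen later. The division of gaps at 500 bp, the stretch shown on chromosome 1 and the genes with single descriptions were also chosen after values were seen. Gene descriptions came from the part held of a supplementary table of the study, names only. Gene strand and DNA sequence were not used here, so promoters and base composition were not analysed. Alternatives were other length, gap and chromosome-end limits, cut-offs on q and fold enrichment, stricter overlaps, equal numbers of top peaks, gene flanks and each replicate 1 list left out. The code was tested on simulated lists with planted peaks. Software comprised scipy 1.17.1, pandas 2.3.3 and numpy 2.4.6 under Python 3.11.15, with matplotlib 3.10.9 for plots.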

Additional observations from a re-analysis of the deposited data

How the results depend on the processing

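Of 75 values computed under alternatives for 10 results, 41 moved. Of the others, 28 stayed within the interval of the reported value, and 6 were numbers of flanking peaks within 1.5 times of 929. Among these were 620 and 1333 with gap limits of 5000 and 20000 bp and 1289 with a length limit of 5000 bp. Only the strain difference could change sign. It did not over all flanking peaks, but at equal numbers the order of the strains differed between the gap classes. Some outcomes were fixed by the setting. Equal numbers left the shorter ΔlaeA replicate 1 list whole, so its share could not move. A fold cut-off cannot lower the median fold, and leaving out a list cannot raise the share with a peak in at least 1. Stricter overlaps and a summit inside cannot raise a share with a peak, and gene flanks cannot lower the share with a gene. The totals are therefore no measure of stability. Leaving out 50000 or 200000 bp at the chromosome ends, or asking for a −log10 q of at least 5, moved no value. A gap limit of 5000 bp gave a median length of 2021.5 bp, a median fold enrichment of 2.28 and 41.1% of flanking peaks with a gene, and a limit of 20000 bp gave a fold of 2.11 and 52.7%. Counting peaks from 5000 bp as broad gave 34.4% with a peak in ΔlaeA replicate 1, 57.0% in WT replicate 1, 1325 bp, a fold of 2.02 and 52.2% with a gene. Counting them from 20000 bp gave 401 flanking peaks, 67.6% in WT replicate 1, 2214 bp, a fold of 2.29 and 42.6%. With a fold enrichment of at least 2, 584 flanking peaks remained, with 47.6% in ΔlaeA replicate 1, 67.1% in WT replicate 1, 2919.5 bp, a median fold of 2.52 and 43.0% with a gene. With at least 3 it was 121, with 57.0% in ΔlaeA replicate 1, 71.1% in WT replicate 1, 6325 bp, 3.35 and 25.6%. An overlap of 200 bp gave 29.7% for ΔlaeA replicate 1, 51.6% for WT replicate 1 and 57.5% for at least 1 of them. An overlap of 50% of the shorter peak gave 37.4%, 57.8% and 64.5% in the same order. A replicate 1 summit inside the flanking peak gave 59.1% in WT replicate 1. Equal numbers of top peaks gave 44.7% in WT replicate 1 and −3.44 percentage points between the strains. Flanks of 500 and 1000 bp around genes gave 53.6% and 59.2%. Without the stretch shown on chromosome 1, 16.7% lay in a broad ΔlaeA replicate 2 peak. Leaving out 1 replicate 1 list gave between 41.2% and 62.8% for the share with a peak in at least 1 of them. Beyond the directions fixed by the settings, the cause of these moves was not tested.

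The strain difference at equal numbers, the overlaps for the strain difference at 200 bp, 50% and summit, the overlaps for ΔlaeA replicate 2 and the stretch left out were added after the data were examined. No paired analysis was possible because WT replicate 2 chose the sites and ΔlaeA replicate 2 was held in part. Limits are the 1 usable library per strain at most sites, the replicate 1 peaks of q above 0.05, the unknown depth, the unnamed build and the strain-specific antibody labels.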
